A study of Mus musculus with 2 samples.

Results

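The genes described here encode 7 members of the interferon regulatory factor family, Irf1, Irf2, Irf3, Irf5, Irf7, Irf8 and Irf9, and the measurement is the binding of a further member, IRF4, at these genes. They were chosen by name, as 7 of the 21631 protein-coding genes on the autosomes and the X chromosome. A summit, the highest point of a peak, was counted for a gene when it lay in the gene body or within 10 kb of either end, which gave 43 of the 44058 summits of the optimal list. IRF4 was precipitated from CH12.LX, an immortalized mouse B-cell lymphoma line derived from a female of strain B10.H-2aH-4bp/Wts. The labels give 1 group of 2 biological replicates, with no treatment, no other genotype and no word on separate cultures, so no condition can be compared with another and the spread between the replicates may be technical. A separate experiment named as a possible control was not used here. Expression was not measured, so nothing here shows whether a gene near a summit is active, and the labelled cell type could not be checked against marker transcripts.

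Interferon regulatory factors share a DNA-binding domain that reads the core GAAA. IRF3 and IRF7 induce type I interferon when viral sensors activate the kinases that phosphorylate them, IRF5 acts below Toll-like receptors, and IRF9 joins STAT proteins in the complex that carries the interferon signal to the nucleus. IRF1 is an early target of interferon gamma, IRF2 competes with it for the same sites, and IRF8, the closest relative of IRF4, pairs with the ETS factor PU.1 in B cells and myeloid cells. IRF4 itself binds DNA poorly alone and occupies composite elements, such as the ETS-IRF element EICE with PU.1 or Spi-B, or tandem IRF elements.

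The sequences under the peaks are shown first. An EICE lay under peaks of Irf2 and Irf5, and a tandem IRF element under peaks of Irf2 and Irf7. The sequences were read on mm9, the build of the genome used here, at the summits of the separate mm9 peak list, or taken from the RefSeq promoter table on GRCm38 (mm10). Capitals mark matches to the motifs searched. The EICE was searched as GGAA followed by GAAA with any 2 bases between them, the tandem IRF element as GAAA followed by GAAA with any 2 bases between them, and the STAT site GAS as TTCNNNGAA. The promoter of Irf2 is shown because the strongest summit of the gene lies 20 bp from an EICE whose GAAA also begins a tandem IRF element, and 2 bp from the GAS site that follows. The stretch runs from 250 bp before the gene start to the base before it (chr8:46739495-46739744, GRCm38, + strand, RefSeq).
Irf2 promoter: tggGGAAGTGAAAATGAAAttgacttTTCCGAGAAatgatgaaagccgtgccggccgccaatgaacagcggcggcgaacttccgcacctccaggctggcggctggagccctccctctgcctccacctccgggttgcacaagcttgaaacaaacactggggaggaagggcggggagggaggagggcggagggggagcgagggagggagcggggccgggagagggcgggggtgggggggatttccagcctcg
The next 3 are EICE matches at Irf5, shown because its 3 strongest peaks all carry one. They lie in an intron (chr6:29479167-29479267), upstream of the gene (chr6:29474162-29474262) and in an untranslated exon of at least 1 transcript (chr6:29486931-29486960), all on mm9 and all printed from the + strand, so that the element appears as its reverse complement. Only a site of 30 bases is printed for the last. It is labelled internal because it lies inside the gene body, and its place among the exons of its transcript was not checked.
Irf5 intron: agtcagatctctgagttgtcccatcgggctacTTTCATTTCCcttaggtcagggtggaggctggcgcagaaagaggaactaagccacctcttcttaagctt
Irf5 upstream: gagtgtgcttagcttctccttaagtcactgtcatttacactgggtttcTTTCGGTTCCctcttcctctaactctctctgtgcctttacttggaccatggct
Irf5 internal exon: aggcctgaggTTTCATTTCCcctaaacatt
Tandem IRF elements were found at Irf7, 6 bp from the summit in an untranslated exon near the gene start (chr7:148451724-148451753, mm9, + strand, where it appears as its reverse complement, since Irf7 is on the - strand), and at Irf2, at the summit in a coding exon near the end of the gene (chr8:47930129-47930229, mm9, + strand).
Irf7 start region: caggtaggaaTTTCAGTTTCacaagtgtga
Irf2 coding exon: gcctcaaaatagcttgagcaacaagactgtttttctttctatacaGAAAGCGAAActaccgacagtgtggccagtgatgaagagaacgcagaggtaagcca
GAS sites lay under the summits at the starts of Irf1 (chr11:53583378-53583478, mm9, + strand) and Irf9 (chr14:56222950-56222979, mm9, + strand, site only).
Irf1 promoter: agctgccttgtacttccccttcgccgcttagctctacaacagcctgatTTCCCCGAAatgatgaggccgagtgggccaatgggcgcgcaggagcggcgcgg
Irf9 start region: gaccacgtggtTTCTAGGAAatgcacctcc
The strongest Irf1 peak, 5985 bp upstream on mm9, held none of the motifs searched. It is shown with its nearest match to the EICE, in capitals, which departs from the pattern by G1A, with positions counted from 1 at the 5′ end of the element (chr11:53577481-53577581, mm9, + strand).
Irf1 upstream: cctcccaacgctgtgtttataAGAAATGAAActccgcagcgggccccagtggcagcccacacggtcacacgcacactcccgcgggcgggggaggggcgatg

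All 7 genes had at least 1 optimal summit, against 62.3% of all protein-coding genes. The number ranged from 16 at Irf2, 10 at Irf5, 6 at Irf1 and 6 at Irf7 to 2 at Irf3, 2 at Irf8 and 1 at Irf9. The median was 6 summits, against 1 over all genes, where the upper quartile was 3. Irf2 is far longer than the others, so counts were also set against window length. The density was 2.80 summits per 10 kb at Irf5, 2.57 at Irf7, 2.12 at Irf1, 1.25 at Irf2, 0.794 at Irf3, 0.496 at Irf8 and 0.384 at Irf9, with a median of 1.25 against 0.234 over all genes. Irf5 was denser than 99.4% of protein-coding genes and Irf7 than 99.2%, whereas Irf8 exceeded 71.3% and Irf9 62.6%. The density counts every optimal summit alike, including weak and overlapping ones. Only 3 of the 6 summits at Irf7 had a summit within 100 bp in both replicates, against all 10 at Irf5. With the stricter conservative list Irf7 had 3 summits and Irf5 had 8.

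The strength of the strongest summit split the genes differently from the number of summits. Signal is the authors' value for a peak, on a scale that is not stated, and ranks peaks within 1 list only. In the optimal list, whose quartiles were 29.4, 41.4 and 66.2, the strongest summit reached 198.5 at Irf5, 189.6 at Irf1, 151.2 at Irf2, 124.8 at Irf9 and 80.2 at Irf7. It reached only 28.8 at Irf3 and 28.4 at Irf8. The median of the 7 was 124.8, against 58.3 over the genes with a summit. With 2 kb either side it was 71.5 against 53.1, and with the gene body alone 71.5 against 52.1. A summit of the strongest quartile was present at 5 of the 7 genes, against 26.7% of all protein-coding genes. The strongest of many summits tends to be higher than the strongest of few. The 7 genes had a median of 6 summits, against 2 over the genes with a summit, and no correction was made for this. Taken singly, the 43 summits were not stronger than the list. Their median signal was 38.4, against 41.4, with 17 in the weakest quartile and 11 in the strongest. Irf9 combined the lowest count with a strong summit, and Irf3 and Irf8 had few summits and weak ones.

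**Figure D1:**
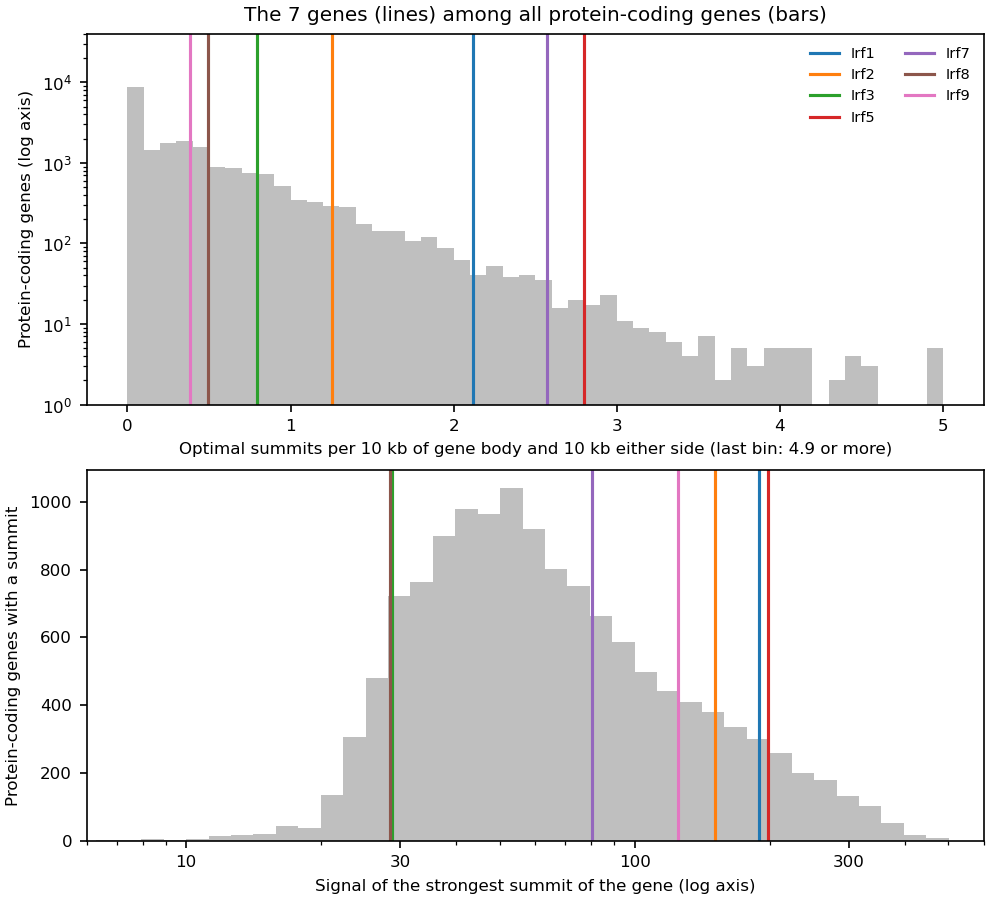
Coloured lines place the 7 genes among all protein-coding genes (grey bars) by optimal summits per 10 kb of gene body and 10 kb either side (top, log count axis) and by the signal of the strongest summit (bottom, log signal axis, genes with a summit). Irf5, Irf7 and Irf1 lie above 2 summits per 10 kb, while Irf3 (28.8) and Irf8 (28.4) lie at the low end of the signal range.

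Of the 43 summits, 26 lay in gene bodies, 11 upstream and 6 downstream. A summit within 1 kb of an annotated start of the gene was present at 6 of the 7 genes, all but Irf8, against 35% of the protein-coding genes with an annotated start. In the stricter conservative list 26 of the 43 (60.5%) were present as the same interval, against 72.3% of all optimal peaks. That list can also hold a summit at a gene under another interval: it had 28 summits at the 7 genes, with 6 at Irf1 and 8 at Irf2. At least 1 conservative summit was present at 6 of the 7 genes, all but Irf8, against 57.4% of all protein-coding genes.

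**Figure D2:**
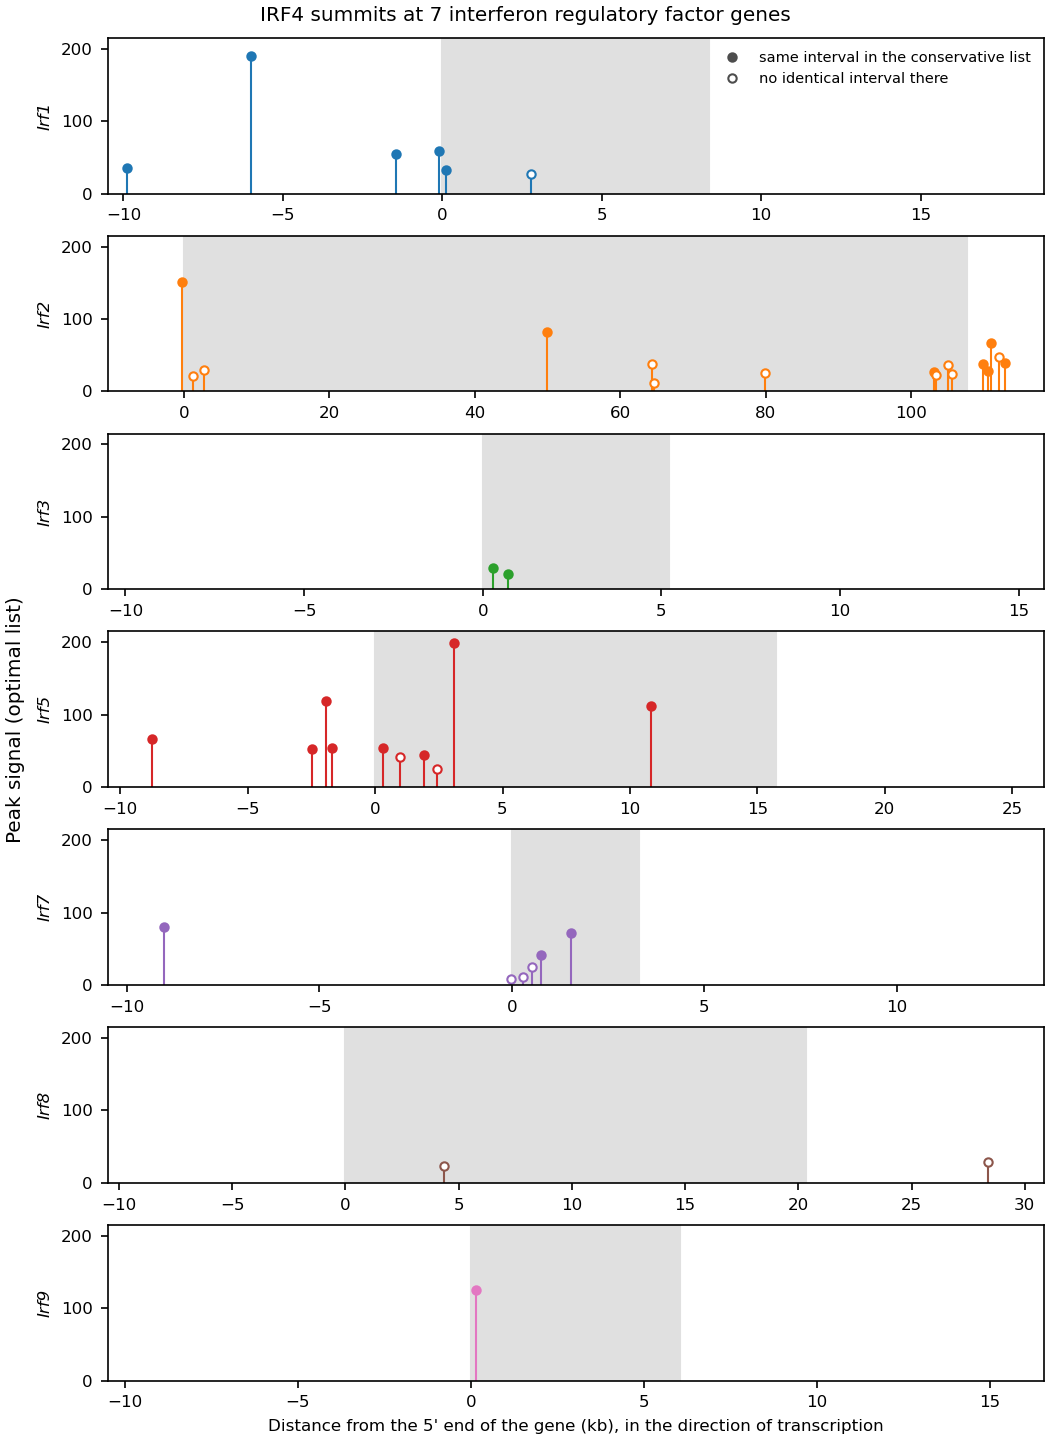
Each panel shows 1 gene, with the gene body in grey, distance from its 5′ end in kb along transcription on the x axis (scales differ between panels) and the signal of each optimal summit on the y axis; filled points have the same interval in the conservative list and open points have no identical interval there. The strongest summits stand upstream of Irf1, at the starts of Irf2 and Irf9 and inside the grey body of Irf5, while Irf3 and Irf8 stay under 30.

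Irf5, which encodes the factor activated through Toll-like receptors and MyD88, had the strongest summit and the highest density. Its strongest summit (chromosome 6, 29529046 to 29529385, mm10) lay in the gene body, 2591 bp after the RefSeq start, and replicate 1 gave 82.5 there and replicate 2 gave 115.0. On mm9 the summit of the same peak was 65 bp from the start of another annotated Irf5 transcript. A group of 3 summits stood 2203 to 2954 bp before the start. Its middle summit had a pooled signal of 118.3, with 62.9 in replicate 1 and 56.5 in replicate 2, and its neighbours had 52.1 and 53.6. The peak 10340 bp into the gene had 112.3, with 34.4 in replicate 1 and 77.7 in replicate 2. These 3 peaks, the strongest at the gene, are the ones with the EICE sequences shown above, GGAAATGAAA in the intron and in the untranslated exon and GGAACCGAAA upstream. The summit nearest to the start, 189 bp before it, was weaker (54.7) and held none of the motifs, and Tnpo3, the neighbouring transport receptor gene, was nearest to no summit.

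Irf1, which encodes a tumour suppressor induced by interferon gamma, had its strongest summit 5997 bp upstream (chromosome 11, 53763930 to 53764092, mm10), with 82.4 in replicate 1 and 109.8 in replicate 2. The start itself carried an overlapping pair, at 97 bp before it with a pooled signal of 59.4 and at 109 bp after it with 32.4. The replicates gave 28.0 and 32.5 at the first of these, in order of replicate number, and 16.6 and 16.7 at the other. The GAS site in the Irf1 promoter lay 2 bp from the mm9 summit there and 86 bp before the gene start. A summit 1461 bp upstream had 54.4 and one 9899 bp upstream 35.2, while a summit 2324 bp after a start had 26.6 and no identical interval in the conservative list. With 2 kb either side the strongest signal at Irf1 was 59.4, and with the gene body alone 32.4. Irf1 lies on chromosome 11, where the median density over genes was 0.586 per 10 kb and 80.0% of genes had a summit, against medians of 0.126 to 0.292 per 10 kb on the chromosomes of the other genes. The part of the high chromosome 11 background in the Irf1 values was not tested.

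Irf2, which encodes the competitor of IRF1, had 16 summits spread over 128 kb of window. The strongest (chromosome 8, 46739353 to 46739692, mm10) lay 222 bp before the start, with 52.1 in replicate 1 and 98.3 in replicate 2. It covers the EICE, the tandem element and the GAS site of the promoter shown above, which lay 20, 14 and 2 bp from the summit. A long noncoding transcript on the opposite strand, Gm16675, starts 21 bp from the summit on mm9. This gene was looked up after the values were seen. The next strongest lay 49872 bp into the gene (81.4, with 35.7 and 43.8 in replicates 1 and 2). A run of 5 summits stood 2212 to 5192 bp past the gene end, with signals of 28.4 to 66.8, and a run of 4 in the last 5 kb of the gene had 22.5 to 35.9. One of that run, at the coding exon with the tandem element GAAAGCGAAA, had 35.9, with 7.08 in replicate 1 and 29.0 in replicate 2. Of the 16 summits, 9 had no identical interval in the conservative list, and the weakest had 11.7. With the gene body alone the strongest signal at Irf2 was 81.4.

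Irf7, which encodes the interferon-inducible amplifier of type I interferon, had a run of 5 summits over its start. From inside the gene towards the start they lay 1461, 671, 443 and 221 bp after it and 86 bp before it, with signals of 71.5, 41.4, 24.3, 11.1 and 7.97. The last of these is close to the lowest signal of the optimal list, 6.92, and the peaks of the run partly overlap. The strongest of the run (chromosome 7, 141264793 to 141265132, mm10) had 23.4 in replicate 1 and 49.1 in replicate 2. The tandem element GAAACTGAAA lay 6 bp from the mm9 summit 590 bp after the start. The optimal summit matched to that mm9 summit, 671 bp after the start, was 81 bp from it. The element thus lay more than 50 bp from the optimal summit, which had 16.5 in replicate 1 and 27.9 in replicate 2. A further summit 9121 bp upstream had the highest signal in the window (80.2), but it was nearest to the start of Cdhr5, a cadherin gene, at 1241 bp. It was the only 1 of the 43 summits that lay nearer to the start of another protein-coding gene, and without it the strongest signal at Irf7 was 71.5.

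Irf9, which encodes the DNA-binding part of the interferon-stimulated complex ISGF3, had a summit at its start and no other. It lay 136 bp after the start (chromosome 14, 55603951 to 55604290, mm10), with 39.9 in replicate 1 and 85.5 in replicate 2 and a pooled signal of 124.8. The GAS site TTCTAGGAA, shown above, was 1 bp from the mm9 summit.

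Irf3, which encodes the constitutive factor activated by viral sensing, had a weak pair of summits just inside its start. The first lay 276 bp after the start (chromosome 7, 44997754 to 44998093, mm10, signal 28.8) and the other 695 bp after it (20.7). Replicate 2 had 16.4 and 14.7 at these sites. Replicate 1 had no summit within 100 bp of either, but had 1 between them, 255 bp from the first and 164 bp from the other, with 15.9. Both had the same interval in the conservative list, and no summit at Irf3 was in the mm9 list. Irf8 was alike in strength. Its summits, 2058 bp after the nearer of its annotated starts (chromosome 8, 120740527 to 120740866, mm10, signal 23.3) and 8057 bp past the gene end (28.4), were both in the weakest quartile. At the first, replicate 2 had 21.9 and replicate 1 had no summit within 100 bp, and at the other the values were 6.92 in replicate 1 and 22.3 in replicate 2.

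Summits beyond the window were stronger than those inside it at Irf8. Just outside it, 10900 bp upstream of the gene, stood a summit with a signal of 102.4, with 46.6 in replicate 1 and 55.9 in replicate 2, and Irf8 was the gene with the nearest start. Between 10 and 50 kb from the gene Irf8 had 7 summits, 5 of them with the same interval in the conservative list, and the weakest of the 7 was still stronger than either summit inside the window. The summit just inside the upstream limit belonged to Irf1, at 9899 bp (35.2), and the nearest one just outside it there lay at 10737 bp (39.2). The nearest outside any of the 7 windows lay 10488 bp upstream of Irf3 (7.37), close to the start of Prmt1. At Irf1 the 15 summits 10 to 50 kb away reached 176.1, at 42248 bp past the gene end. At Irf3, Irf7 and Irf9 most summits 10 to 50 kb away were nearest to the starts of other genes, such as the proteasome activator genes Psme1 and Psme2 beside Irf9.

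The replicates were compared at the 35 summits that both matched within 100 bp, 81.4% of the 43, against 85.4% of all optimal peaks. Replicate 2 was higher at 33 of the 35 and replicate 1 at 2, both at Irf5. The share of all matched optimal peaks with replicate 2 higher was not computed, so this count has no background beside it. The median log2 ratio of replicate 2 to replicate 1 was 0.75 (SD 0.68), against 0.53 (SD 0.66) over the 37635 matched optimal peaks, and the tilt towards replicate 2 was present in the whole list. For 32 of the 35 the ratio lay between the 5th and 95th percentiles of all matched peaks in the same quartile of signal. The exceptions were the Irf2 summit 105072 bp into the gene (2.03), the Irf5 summit 1932 bp after its start (-1.51, with 19.7 in replicate 1 and 6.94 in replicate 2) and the strong upstream Irf5 summit (-0.16). Of the 8 unmatched summits, 5 had no match in replicate 1 and 3 had none in replicate 2. With 2 replicates of 1 group no test of these ratios was made. Ranked by the strongest summit in each replicate list, both replicates gave the order Irf5, Irf1, Irf2, Irf9 and Irf7, with Irf3 and Irf8 last. Irf5 and Irf1 were nearly equal in replicate 1, at 82.5 and 82.4.

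**Figure D3:**
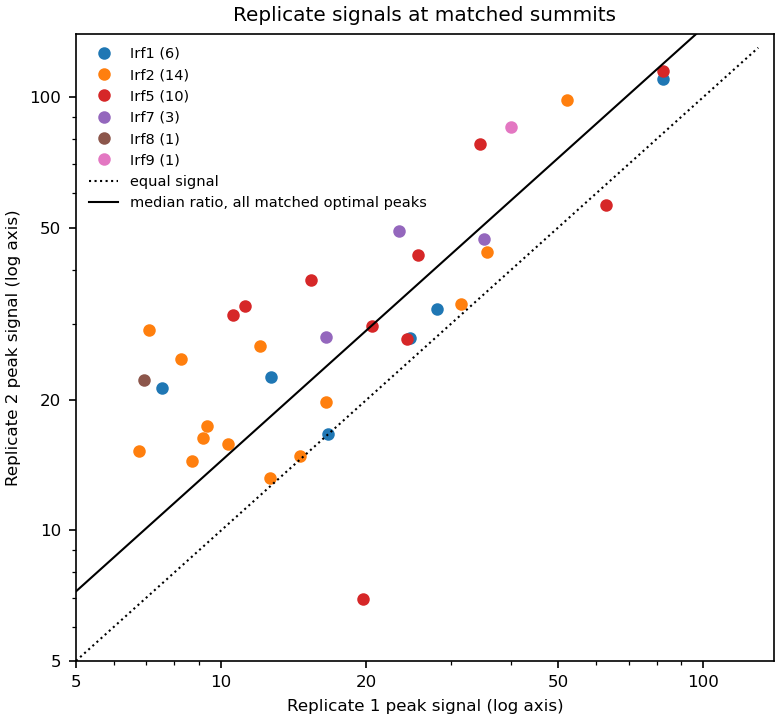
Points are the 35 summits matched in both replicates, coloured by gene with the number in the legend, on log axes of peak signal in replicate 1 (x) and replicate 2 (y); the dotted line is equal signal and the solid line the median ratio of all 37635 matched optimal peaks. At 33 of the 35 summits replicate 2 was higher (the share over all matched peaks was not computed). The Irf5 point far below the lines has 19.7 in replicate 1 and 6.94 in replicate 2.

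Motif matches were counted on both strands within 50 bp of the 25 mm9 summits at 6 of the genes, each of which lay at the same distance from the gene start as an optimal summit, to within 100 bp. The EICE was at 4 of the 25 peaks, against 8.68% of all 27671 mm9 peaks and 0.918% of windows 300 bp to one side, and 2.73% of promoters in the RefSeq table. The promoters span 250 bp before to 50 bp after the start and are longer than the windows at summits, so their shares are not on the same footing. The tandem IRF element was at 3, against 5.79% of all mm9 peaks, 1.60% of side windows and 3.46% of promoters. It shares a GAAA with the EICE at the Irf2 promoter, so 6 of the 25 peaks held at least 1 of these elements. The share of all mm9 peaks with at least 1 of them was not computed. The GAS site was at 3, at Irf1, Irf2 and Irf9, against 3.52% of all mm9 peaks, 3.02% of side windows and 8.34% of promoters. The Irf8 promoter also held GAS sites, at 4488 and 4506 bp from the nearest optimal summit. The NF-kB site (GGGA and CC with any 4 bases between them) was at 1, an Irf5 peak, against 10.1% of all mm9 peaks, 4.46% of side windows and 20.9% of promoters. Outside the 50 bp windows, the Irf1 promoter held an NF-kB site 8 bp before the start, 89 bp from the optimal summit of 59.4. The Irf8 promoter held such sites at 4324 and 4392 bp from the nearest optimal summit. No match was found to the AP-1 site (TGANTCA, 16.0% of all mm9 peaks), the AP-1-IRF elements that join GAAA directly to the AP-1 site (1.13%) or set TTTC 4 bases before it (1.12%), the PU.1 site GAGGAAGT (4.93%) or the octamer ATGCAAAT (2.61%). With 25 peaks, these shares rest on few counts. No motif was found at 16 of the 25 peaks, among them the mm9 peak of Irf8 and the strongest mm9 peak of Irf7. Of these 16, 9 held an EICE with 1 differing base, such as GGAACTGAAT (A10T) 6 bp from the strongest summit in the Irf7 body. Neither the share of all mm9 peaks with no motif nor the share of those with such a match was computed, so these counts have no background. With exact matches included, an EICE with at most 1 differing base was at 16 of the 25 peaks, against 34.1% of all mm9 peaks.

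On mm9 the transcripts of the same genes placed 11 of the 25 summits upstream, 5 downstream, 4 in introns, 3 in untranslated regions, 1 in a coding exon of Irf2 and 1 in a noncoding exon of Irf7. An exon of a minor transcript counts here, so such a site can be intronic in others.

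How the 7 genes stand among other genes of the interferon pathway was described with 27 genes, among them Irf4 and genes of STAT partners, receptors, kinases, adaptors, sensors, ETS partners, IRF2 binding proteins and ligands. An optimal summit was present at all 7 genes, against 25 of these 27. The median was 6 summits at the 7 genes, against 4 at the pathway genes, and the median strongest signal was 124.8, against 89.7. Irf4 had 5 summits and a strongest signal of 72.0 (47.6 in replicate 2 and no summit within 100 bp in replicate 1), below those at Irf5, Irf1, Irf2 and Irf9. It was below the 80.2 at Irf7 but close to the 71.5 there without the summit nearest to Cdhr5. Among the strongest were Ifnar2, a chain of the type I interferon receptor (234.3, with 100.3 and 131.5 in replicates 1 and 2), Ticam1, a Toll-like receptor adaptor gene whose strongest summit was nearest to Fem1a (220.5), and Ifngr2, a chain of the interferon gamma receptor (198.4). Ifnar2 and Ifngr2 lie on chromosome 16, where 70.7% of genes had a summit. Stat2, which encodes a partner of IRF9, had 3 summits and a strongest signal of 139.9. Of the kinases that phosphorylate IRF3 and IRF7, Tbk1 had 2 summits with a strongest signal of 35.2 and Ikbke had 3 with 45.7. The interferon genes Ifnb1 and Ifng were the pair with no summit.

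**Figure D4:**
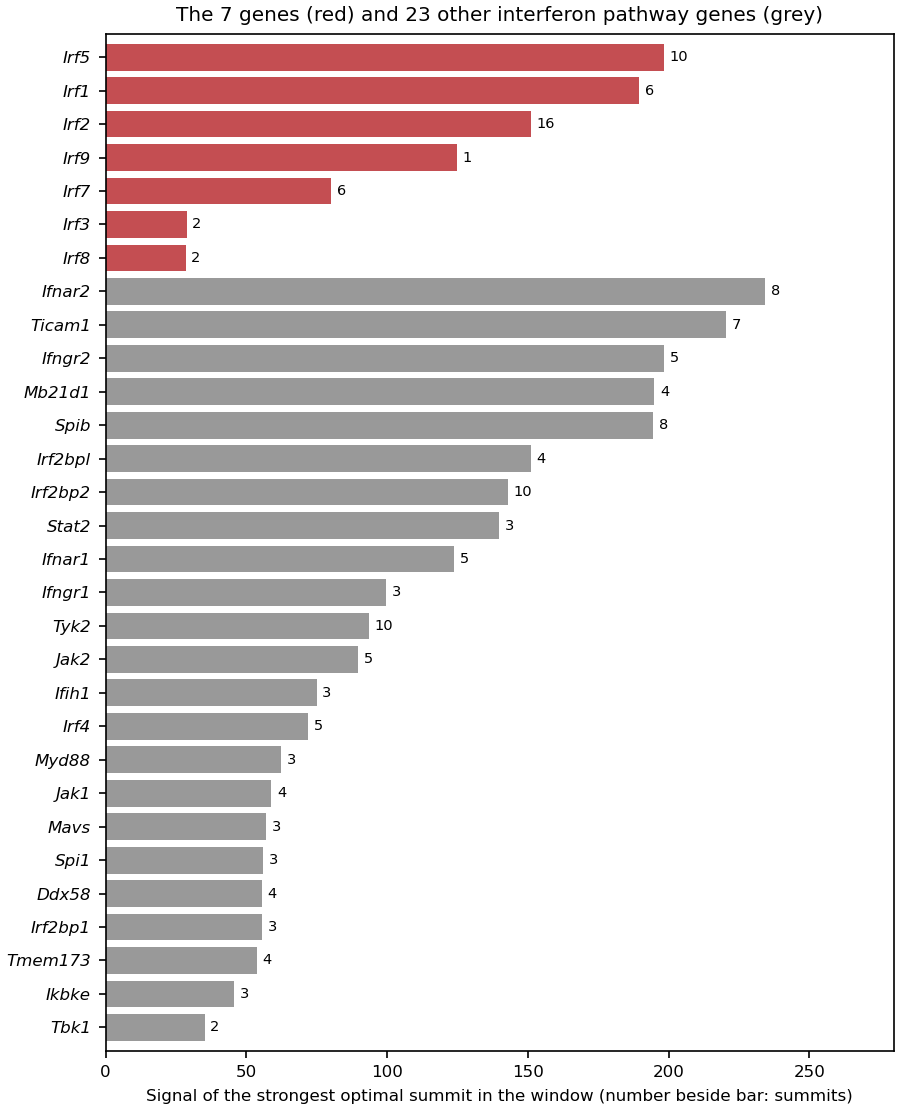
Bars give the signal of the strongest optimal summit in the gene body or within 10 kb, for the 7 genes (red, top) and 23 of the 25 pathway genes with a summit (grey, below), with the number of summits beside each bar. Irf5 (198.5) and Irf1 (189.6) stand near Ifngr2 (198.4), while Irf3 and Irf8 fall below every grey bar, of which Tbk1 (35.2) is the lowest.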

How the data were processed

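ChIP-seq of IRF4 in CH12.LX was analysed from 6 deposited narrowPeak lists. Per the deposited file descriptions, the authors made relaxed lists for replicate 1 (215095 peaks), replicate 2 (300000) and the pool (300000) on mm10, and from them, by irreproducible discovery rate, the optimal (44058) and conservative (35879) lists; the mm9 list (27671) came from mm9 alignments of both replicates. The signal of each peak is the authors' deposited value, of unstated scale. The sources used here name no aligner, caller or threshold and give no depth, so the replicate values show the precision. Of the optimal peaks, 94.8% are 340 bp wide.

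Gene bodies came from RefSeq on GRCm38 and starts from the RefSeq promoter table (chromosome 18 starts were not used here). On mm9, GENCODE genes and the mm9 genome were used. No coordinates were converted: promoter sequences of the 7 genes matched the mm9 genome exactly, and peaks of the builds were compared by distance from these starts. Replicate summits were matched within 100 bp. Motifs were searched within 50 bp of summits.

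The members, lists and motifs were chosen with earlier results of these data known, so counts stand beside the background and no test was made. Every member is described with its summits; of the pathway genes, the family members, the 4 with the strongest summit and those without a summit were to be named by rule, of which 2 are not reported here, and Stat2, Tbk1 and Ikbke after their values were seen. Printed sequences other than the windows of strongest summits were chosen for the motifs they hold. The Irf2 promoter was among those chosen so. The promoters of Irf5 and Irf7 also had a summit but held none of the motifs, and are not printed. Scripts were tested on simulated data. Python 3.11.15, numpy 2.4.6, pandas 2.3.3, matplotlib 3.10.9 and samtools 1.23.1 were used.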

Additional observations from a re-analysis of the deposited data

How the results depend on the processing

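At least 5 of the 7 genes had a summit under every alternative tried: 6 with the conservative list (57.4% of all genes) or the mm9 list (47.0%), 5 with optimal peaks above the median signal (44.9%), and 7 otherwise (53.3% of all genes with 2 kb, 77.4% with 50 kb, 41.9% with the gene body alone). The number of summits moved from 43 to 92 with 50 kb either side, 26 with the gene body alone, 28 with the conservative list, 18 with those above the median and 25 with the mm9 list; leaving out a replicate gave 34 to 38. The median strongest signal moved from 124.8 to 71.5 with 2 kb either side or the gene body alone, settings that leave out upstream summits such as that of Irf1, and to 167.9 with the mm9 list, a separate list of signals (86.7 over all genes with a summit). It was 39.9 to 85.5 with 1 replicate left out, on the scale of single lists, against 24.3 to 36.0 over all genes with a summit. With 1 differing base allowed, the EICE was at 16 of 25 peaks (34.1% of all mm9 peaks), the tandem element at 8 (33.4%) and the PU.1 site at 13 (24.9%). With 100 bp either side of the summit the AP-1 site was at 1 (20.1% of all mm9 peaks), the GAS site at 5 (6.96%) and the NF-kB site at 6 (17.8%), and with 25 bp the NF-kB site was at 0 (4.86%). The other 51 values over the genes or peaks together stayed within 1.5 times or, for signals and log2 ratios, within a spread. For signals this was the SD between the 2 single-replicate lists of the median over the 7 genes. For the log2 ratio it was the SD over the summits. Some of the 51 could not move, such as motif counts of 0 with 25 bp and the count of 7 genes with 50 kb. The count of 51 is thus no measure of stability. Of the values of single genes 91 did likewise and 45 moved further, among them the summits at Irf2 (8 with the conservative list), Irf9 (10 with 50 kb) and Irf8 (9 with 50 kb). The strongest signal of a gene was held against the same spread of the median over the 7 genes, 32.3, and not against a spread of its own. That is more than the whole signal at Irf3 (28.8) and Irf8 (28.4). No fall there could count as moved, such as that to 12.9 at Irf8 without replicate 2. The count of 91 is therefore no measure of stability. The alternatives for the 27 pathway genes were added after the data were seen. No paired analysis was possible because the samples form 1 group. Depth is unknown, so a gene with few or no summits may be bound below what these lists resolve.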
